A study of Rattus norvegicus with 2 samples.

Results

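8-oxoG levels were described along chromosome 15 of the rat, in the kidney of 2 untreated male Wister rats (the spelling of the labels) killed at 5 weeks of age. The chromosome was chosen by its measured values on these arrays: it holds the 1 Mb fragment with the highest level in the genome, from 75000001 to 76000000 (rn4), among fragments covered by at least 50 probes. It is represented by 8725 probe positions, which are 3.70% of the 235872 probe positions kept on the array. All probes placed on chromosome 15 of rn4 by the array design were members, except 5 of 8730 that were lost to outlier flags, and the 85 probes on sequence of chromosome 15 without a fixed position were left out. Since the choice used the levels themselves, the levels on chromosome 15 and the calls made from them are given as a description, with no p.

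8-oxoguanine (8-oxoG) is the commonest oxidised form of guanine in DNA. It arises where reactive oxygen species, a by-product of respiration, attack the base, and it can pair with adenine as well as with cytosine during replication, so that a G:C pair may become a T:A pair. The glycosylase OGG1 removes it from DNA by base excision repair, MUTYH removes the adenine paired with it, and NUDT1 clears the oxidised nucleotide from the nucleotide pool. Kidney tubules respire heavily, and the kidney is a common tissue for work on oxidative DNA damage.

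DNA of each rat was immunoprecipitated (IP) with the 8-oxoG antibody N45.1 and labelled with Cy5, and input DNA of the same kind without IP was labelled with Cy3, with 800 ng per labelling and 1 array for each rat. The 2 rats form 1 group, normal kidney, and no control group was used, and without a dye swap effects of the dyes and of the IP cannot be told apart. The 8-oxoG level is log2(IP/input) of the processed intensities, centred on the median of each array, so that 0 stands for a typical probe of that array, which may itself carry 8-oxoG. On chromosome 15, 78.7% of the probes stood well above background in IP and input alike, in both rats, against 78.2% of all probes, and no spot of the chromosome was saturated. As the arrays measured DNA, no marker gene of kidney could be examined. The number of arrays limits the precision of every value below, and an exact sign permutation of 2 arrays cannot give a two-sided p under 0.5.

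Seen along its length, chromosome 15 fell into a long part with low levels followed by 2 blocks with high levels and a mostly low last part. From 0 to 62 Mb, 45 of the 62 fragments of 1 Mb were below 0 on both arrays and 8 were above 0 on both. The mean over the 5626 probes of this part was -0.11 on replicate 1 and -0.16 on replicate 2. From 62 to 82 Mb, 18 of 20 fragments were above 0 on both arrays and none was below on both, with means of 0.47 and 0.30. The change of sign between these neighbouring parts was therefore seen in both rats. From 82 to 91 Mb the fragments alternated, 3 being above 0 on both arrays, 2 below on both and 4 of opposite sign, with means of 0.07 and 0.05. From 91 to 102 Mb, 10 of 11 fragments were above 0 on both arrays, with means of 0.48 and 0.33. The last part, from 102 to 110 Mb, had 5 of 8 fragments below 0 on both arrays and means of -0.09 and -0.25. In it 1 fragment was above 0 on both arrays and 2 were of opposite sign. The one above 0 was the final fragment, from 109 to 110 Mb, with 0.34 and 0.02, so only replicate 1 put the very end clearly above 0. These bounds were set after the values were seen. In each high block the level was lower on replicate 2 than on replicate 1, yet remained above 0.

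**Figure D1:**
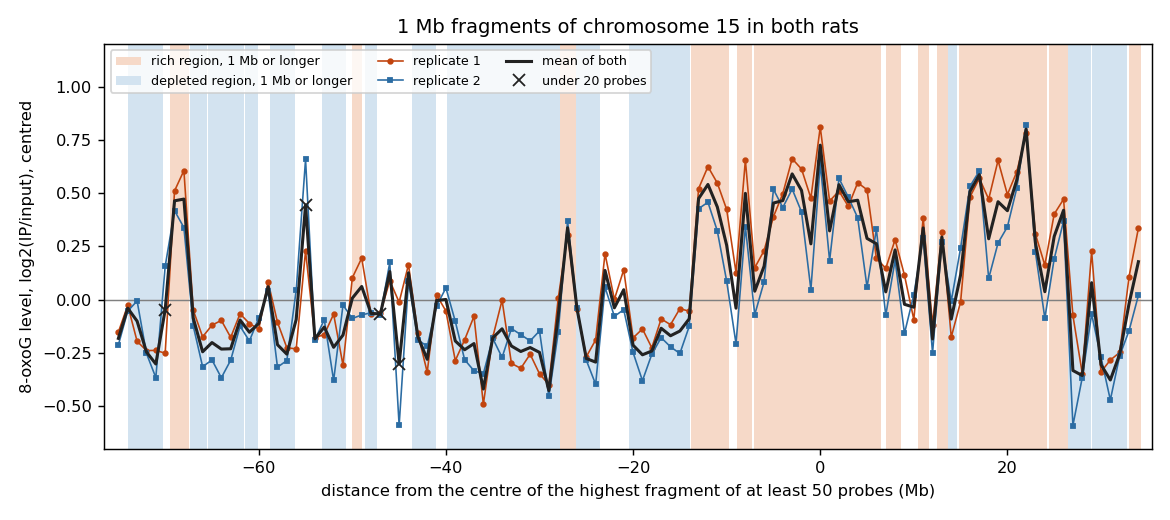
8-oxoG level of the 110 fragments of 1 Mb of chromosome 15 (vertical axis, log2(IP/input), centred) against the distance from the centre of the highest fragment of at least 50 probes (horizontal axis, Mb), for replicate 1, replicate 2 and their mean. Shading marks rich and depleted regions of 1 Mb or longer from the smoothed profile, and crosses mark the 4 fragments with under 20 probes. Both rats run low on the left, where most of the first 62 fragments lie below 0, and rise into 2 high blocks on the right.

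Over the whole chromosome, 40 of the 110 fragments (36.4%) were above 0 on both arrays, 52 (47.3%) were below 0 on both and 18 (16.4%) differed in sign. Over all 2731 fragments of the genome these shares were 32.8%, 48.8% and 18.3%, so chromosome 15 lay near them. Each fragment of the genome was set against 0 by limma with Benjamini-Hochberg adjustment over all 2731 fragments of chromosomes 1 to 20 and X, with the spread pooled over the genome. On chromosome 15, 33 fragments (30.0%) were called above 0, where 20.9% of all fragments were. Fragments called below 0 numbered 18 (16.4%), where 20.4% of all fragments were. Nothing is read from these shares, because the chromosome was chosen on the same contrast. The pooled standard error was 0.10, and the calls began at a level of 0.26 above 0 and of -0.24 below 0. Of the 33 fragments called above 0, 17 lay between 62 and 82 Mb and 10 between 91 and 102 Mb. Of the 18 called below 0, 13 lay in the first 62 Mb and 5 in the last part.

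The fragment from 75 to 76 Mb had a level of 0.81 on replicate 1 and 0.64 on replicate 2, hence 0.73 ± 0.12 (SD, n = 2). Among the 2222 fragments of at least 50 probes it ranked first by the mean and second in each rat alone. It is covered by 53 probes, with a median interval of 16179 bases and no interval longer than 39071 bases. Of these probes, 36 were above 0 on both arrays, 3 were below 0 on both and 14 differed in sign. On the other chromosomes, 31.5% of probes were above 0 on both arrays and 31.6% below on both. The median level of the 53 probes was 0.87, and the quartiles were 0.14 and 1.15. Without its 5 highest probes the fragment had a mean level of 0.59. As the fragment was chosen by the mean of these same probes, these values only describe it. The 37 probes with IP and input well above background in both rats had means of 0.72 and 0.61.

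All 5 pieces of 200 kb within the fragment were above 0 on both arrays. Their mean levels, from the left end to the right, were 0.79 ± 0.04, 0.59 ± 0.08, 0.81 ± 0.34, 0.94 ± 0.25 and 0.60 ± 0.03 (SD, n = 2), over 9 to 15 probes each. The highest piece, from 75600001 to 75800000, had 1.12 on replicate 1 and 0.76 on replicate 2. In the third piece the rats, with 1.05 and 0.57, lay farther apart than the highest and the lowest piece, so the pieces have no clear order. Outside the fragment the pieces were more uneven. The piece from 74600001 to 74800000 had 0.20 on replicate 1 and -0.32 on replicate 2, and that from 76600001 to 76800000 had 0.29 and -0.32, so in both cases the rats disagreed in sign.

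The highest probe of the fragment, A_86_P05810374 (75981750 to 75981809), had levels of 1.60 on replicate 1 and 3.16 on replicate 2. It was followed by A_86_P05808280 (75147609 to 75147668), with 2.24 and 2.21, and by A_86_P05809436 (75663299 to 75663358), with 1.91 and 2.14. These 3 probes lie near the right end, in the left part and right of the centre of the fragment. A_86_P05808747 (75368958 to 75369017) had 1.62 and 2.17, and A_86_P05809154 (75539069 to 75539128) had 2.10 and 1.48. All 5 were above 1 on both arrays, although A_86_P05810374, A_86_P05808280 and A_86_P05808747 were dim, with at least 1 channel not well above background. At the other end, A_86_P05809857 (75847746 to 75847805) was low on both arrays, with -0.999 and -0.97. It lies between A_86_P05809820, with 1.27 and 0.68, and A_86_P05809904, with 1.03 and 1.59, so the sign changed from one probe to the next. A_86_P05809238 (75571697 to 75571756) had 0.49 and -2.44, and A_86_P05810195 (75928656 to 75928715) had 0.06 and -1.47. A_86_P05810264 (75944480 to 75944539) had 0.54 and -1.21, while A_86_P05810297 (75952808 to 75952867) had -0.08 and -0.40. For 3 of the 5 lowest probes the rats thus disagreed in sign, and over all 53 probes the correlation between the rats was 0.360, a description over probes that share 2 arrays.

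**Figure D2:**
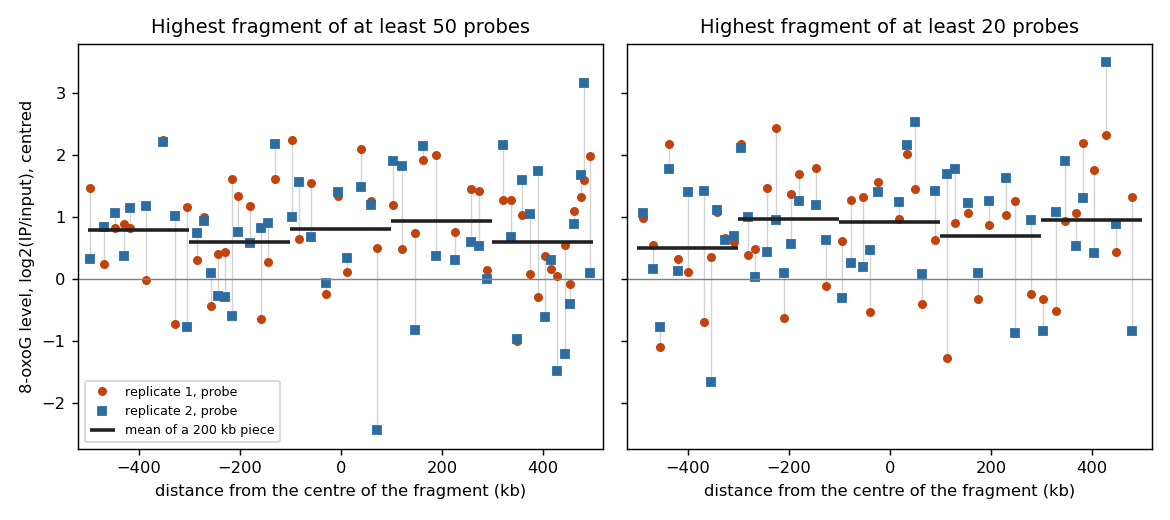
8-oxoG level of each probe (vertical axis, log2(IP/input), centred) against its distance from the centre of the fragment (horizontal axis, kb), for the highest fragment of at least 50 probes (left, 53 probes) and that of at least 20 probes (right, 48 probes). Circles are replicate 1, squares are replicate 2, a grey line joins the values of a probe, and black lines are means over both rats of 200 kb pieces, which range from 0.59 to 0.94 on the left and from 0.50 to 0.97 on the right.

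The 3 fragments on each side of it were also above 0 on both arrays. To the left, the fragment from 72 to 73 Mb had 0.66 on replicate 1 and 0.52 on replicate 2, that from 73 to 74 Mb had 0.61 and 0.41, and that from 74 to 75 Mb had 0.48 and 0.05. To the right, the fragment from 76 to 77 Mb had 0.46 and 0.18, that from 77 to 78 Mb had 0.51 and 0.57, and that from 78 to 79 Mb had 0.44 and 0.48. The peak thus lay among fragments above 0, but each direct neighbour was lower on both arrays than the next fragment beyond it. The step up from 74 to 75 Mb to the peak was 0.33 on replicate 1 and 0.59 on replicate 2.

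The place of this fragment at the top depends on the number of probes required. The fragment from 97000001 to 98000000 has 48 probes, just under the minimum of 50, and had 0.78 on replicate 1 and 0.82 on replicate 2, hence 0.80 ± 0.03 (SD, n = 2). With a minimum of 20 probes it ranked first of 2702 fragments and the fragment from 75 to 76 Mb had rank 5. The difference between both fragments is smaller than the spread between the rats at 75 to 76 Mb, and replicate 1 had them in the opposite order. Of its 48 probes, 33 were above 0 on both arrays, 2 were below 0 on both and 13 differed in sign. Without the 5 highest probes its mean was 0.64. Its pieces of 200 kb had levels of 0.50, 0.97, 0.92, 0.69 and 0.95, all above 0 on both arrays. The step down to the next fragment, from 98 to 99 Mb, was -0.47 on replicate 1 and -0.60 on replicate 2.

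Behind these 2 fragments, the highest of at least 20 probes were those from 72 to 73 Mb, with 0.59 ± 0.10, from 92 to 93 Mb, with 0.59 ± 0.02, and from 96 to 97 Mb, with 0.56 ± 0.05 (SD, n = 2). On replicate 1 their levels were 0.66, 0.57 and 0.60, and on replicate 2 they were 0.52, 0.60 and 0.52, in that order. They lie in the same 2 blocks as the peaks, and they do not differ from one another beyond the spread between the rats.

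The lowest fragments were found in the first and the last part of the chromosome. The fragment from 46 to 47 Mb had -0.40 on replicate 1 and -0.46 on replicate 2, and that from 39 to 40 Mb had -0.49 and -0.35. In the last part, the fragment from 106 to 107 Mb had -0.28 and -0.47, that from 103 to 104 Mb had -0.35 and -0.37, and that from 102 to 103 Mb had -0.07 and -0.59. The fragment from 102 to 103 Mb is therefore low mainly on replicate 2, whereas the other 4 were below -0.25 on both arrays. The lowest mean level on the chromosome was -0.43, so the low fragments lay closer to 0 than the peaks did. This order depends on the processing. With normexp background correction the fragment from 39 to 40 Mb had -0.17, and the peaks had 0.065 at 75 to 76 Mb and 0.07 at 97 to 98 Mb.

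The profile was smoothed by averaging all probes up to 500 kb away on either side, and a run of probes that stayed on 1 side of 0 was taken as a region. Chromosome 15 held 12 rich regions of 1 Mb or longer, with a summed length of 40.7 Mb (37.1% of the chromosome), and 14 depleted regions with 48.4 Mb (44.1%). Regions were taken from the mean of both rats. The last rich region, from 108514080 to 109754827, had 0.31 on replicate 1 and -0.03 on replicate 2. The longest rich region, from 68419211 to 82010829 (13.6 Mb, 819 probes), contains the peak at 75 to 76 Mb and had levels of 0.46 on replicate 1 and 0.33 on replicate 2. The next, from 90307654 to 99695035 (9.39 Mb, 460 probes), contains the peak at 97 to 98 Mb and had 0.48 and 0.38. The third, from 61637838 to 65789145 (4.15 Mb, 275 probes), opens the first high block, with 0.51 and 0.30. These 3 regions were thus higher on replicate 1. Their lengths depend on the rat. On replicate 1 alone, the first and the third were parts of 1 run of 23.6 Mb from 61637838 to 85231031. On replicate 2 alone, the run around the peak went from 74418272 to 80552564 (6.13 Mb). Lengths depend on the processing too. With normexp background correction the longest rich region had 4.44 Mb, and the rich regions had a summed length of 23.4 Mb. Before dye normalization the longest had 20.4 Mb.

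Among the depleted regions, the longest ran from 35583827 to 47731756 (12.1 Mb, 1227 probes), with -0.24 on replicate 1 and -0.21 on replicate 2. It ended at the start of a narrow rich region, from 47737827 to 49367234, with 0.24 and 0.20. The second ran from 55016430 to 61559263 (6.54 Mb, 533 probes), with -0.14 and -0.26, and the third from 10051888 to 13911982 (3.86 Mb, 280 probes), with -0.11 and -0.27. The mean was therefore below 0 on both arrays in each, and it was lower on replicate 2 in the second and the third. The length of the first depends on the rat and on the window. On replicate 1 alone its run went from 41916792 to 47302242 (5.39 Mb) and was shorter than the run of 6.58 Mb that matches the second region, while on replicate 2 alone it was 12.1 Mb long. With a window of 250 kb to each side, the longest depleted region had 5.44 Mb.

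The border between the low first part and the high block was placed alike in both rats. On each array alone the depleted run ended at 61559263 and the rich run began at 61637838, although smoothing blurs a border by up to 500 kb. In pieces of 200 kb, that from 61400001 to 61600000 had -0.21 on replicate 1 and -0.06 on replicate 2. The piece from 61600001 to 61800000 had 0.40 and -0.42, and that from 62000001 to 62200000 had 0.63 and 0.37. At the finer scale the rats therefore disagreed about 1 piece at the border and agreed in sign on either side of it. Between fragments of 1 Mb, the step at 62 Mb was 0.58 on replicate 1 and 0.55 on replicate 2.

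This step was the second largest of 101 steps between neighbouring fragments of at least 20 probes. The largest was the fall at 102 Mb, where the second high block ended, with -0.55 on replicate 1 and -0.96 on replicate 2. The third was a fall at 8 Mb, with -0.66 and -0.46. It closed the only long rich region in the first 20 Mb, from 5976341 to 8069040, which had 0.54 and 0.37. All 3 steps had the same direction in both rats, but they were picked as the largest by the mean of these same arrays. Among all 101 steps, 70 had the same direction in both rats, and the median size of a step was 0.14.

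Agreement between the rats grew with the length over which probes were averaged. The correlation between the rats was 0.363 over the 8725 probes, 0.587 over 538 pieces of 200 kb, 0.830 over the 110 fragments of 1 Mb and 0.925 over 55 fragments of 2 Mb. Over fragments of 500 kb it was only 0.606, and 1 fragment with a single probe, from 82 to 82.5 Mb, with 3.20 on replicate 1 and -0.30 on replicate 2, lowered it. Without that fragment it was 0.745. On the other chromosomes it was 0.793 over 1 Mb fragments and 0.719 over 500 kb fragments. These values describe positions that share the same 2 arrays and neighbours that resemble each other. A fragment on replicate 1 and the fragment 1 Mb away on replicate 2 still had a correlation of 0.540 over 109 pairs, which fell to 0.343 at 5 Mb and 0.160 at 10 Mb.

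**Figure D3:**
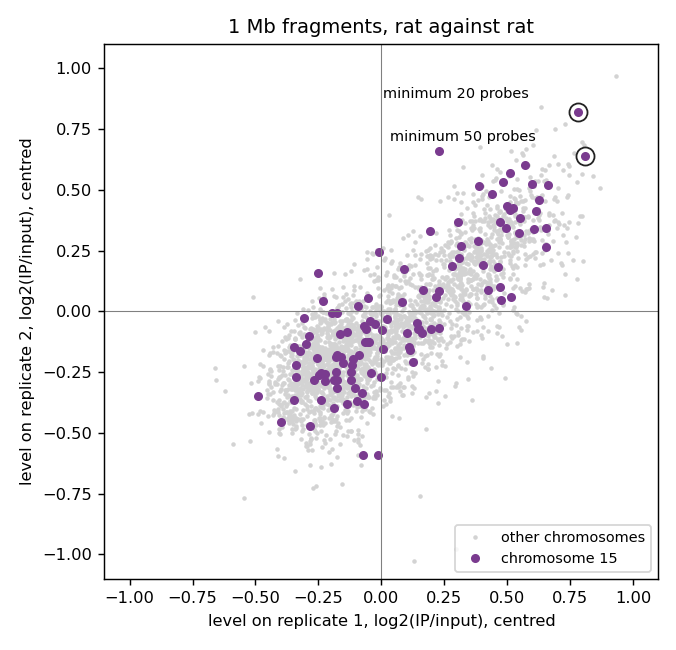
Level of each 1 Mb fragment on replicate 1 (horizontal axis) against replicate 2 (vertical axis), both as log2(IP/input), centred, for the 110 fragments of chromosome 15 (purple) and those of the other chromosomes (grey, with 1 fragment outside the plotted range). Circles mark the highest fragments of chromosome 15 with minima of 50 and 20 probes, which lie toward the upper right, and 18 purple points fall into the upper left and lower right fields, where the rats differ in sign.

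The rats differed by 0.09 on average over the fragments of chromosome 15, replicate 1 being higher, and the SD of the difference was 0.18. Among fragments of at least 20 probes with opposite signs, that from 66 to 67 Mb differed most, with 0.13 on replicate 1 and -0.21 on replicate 2. It interrupts the high block between 2 fragments that were above 0 on both arrays. The fragment from 104 to 105 Mb had 0.23 and -0.07, and that from 19 to 20 Mb had -0.23 and 0.05. No sign can be given to these 3 fragments. Of the 4 fragments with under 20 probes, some differed widely between the rats and 1 did not. The fragment from 20 to 21 Mb had 0.23 and 0.66 over 6 probes and was called above 0. The longest interval without probes (20361818 to 21006290) begins in it and ends in the next fragment, so no probe covers the rest of it. The fragment from 30 to 31 Mb had -0.01 and -0.59 over 13 probes and was called below 0. The fragment from 5 to 6 Mb had -0.25 and 0.16 over 15 probes, and that from 28 to 29 Mb had -0.06 and -0.07 over 10 probes.

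The level moved together with the brightness of the spots. Over the 110 fragments, the correlation of the level with the log2 intensity of the input channel was -0.839, against -0.627 over the other chromosomes, and that with the IP channel was -0.584. The level contains the input of its own array. The level of replicate 1 had a correlation of -0.834 with the input of its own array and of -0.840 with that of the other array, and for replicate 2 these values were -0.773 and -0.755. In rich regions the input was -1.04 and the IP was -0.67 on the log2 scale relative to the array median, so both channels were dim there and input was dimmer. In depleted regions they were 0.02 and -0.17. Probe density differed too, with 62.4 probes per Mb in rich regions and 102 in depleted regions, and 71.4% against 81.7% of probes were well above background. The part of brightness and of probe density in the levels was not tested beyond the removal of a trend described below.

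At 75 to 76 Mb the input was -1.47 and the IP -0.72, and at 97 to 98 Mb they were -1.92 and -1.09. When the 110 fragments were split by input into 3 groups of similar size, 32 of 37 in the dimmest group were above 0 on both arrays and none was below on both. In the middle group 5 of 36 were above and 23 below, and in the brightest group 3 of 37 were above and 29 below. Both peaks belong to the dimmest group.

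**Figure D4:**
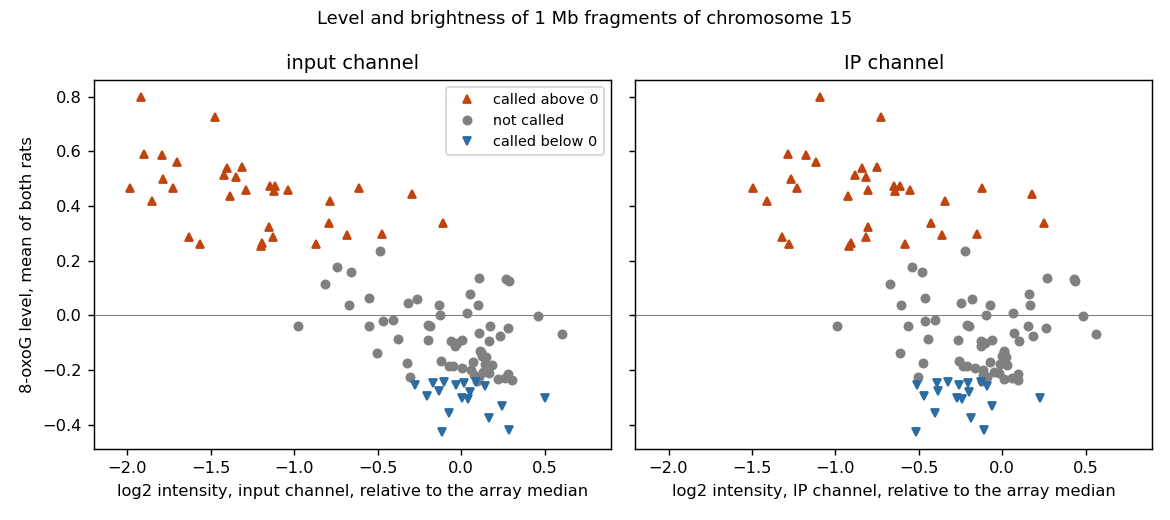
Level of the 110 fragments of chromosome 15 (vertical axis, mean of both rats, log2(IP/input), centred) against the log2 intensity of the input channel (left) and of the IP channel (right), relative to the array median (horizontal axes). Triangles pointing up are the 33 fragments called above 0, triangles pointing down the 18 called below 0. High levels lie among dim fragments, with a median input of -1.29 for those called above 0 and 0.01 for those called below.

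Other ways of processing changed the height of the profile and the number of calls. When the trend of the level on input brightness was removed from each array, the 33 fragments called above 0 all kept a positive level. All 18 called below kept a negative one. With the trend removed, 22 fragments of the chromosome were called above 0 and 7 below, where 327 and 379 of all 2731 were. The level at 75 to 76 Mb was 0.57. Before dye normalization it was 0.96. With normexp background correction it was 0.065, and the median level of the fragments called above 0 was 0.04 instead of 0.46. Of these 33 fragments, 26 were above 0 and 7 below 0 after normexp, and across fragments the levels still had a correlation of 0.903 with those reported. After normexp, limma called no fragment of chromosome 15 above 0, where 7 of all 2731 fragments were called. On the chromosome, 1 fragment above 0 had an unadjusted p under 0.05, against 34 with the levels as reported. No unadjusted count over all fragments was made. The heights given here thus hold for the intensities as processed by the scanner software.

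**Figure D5:**
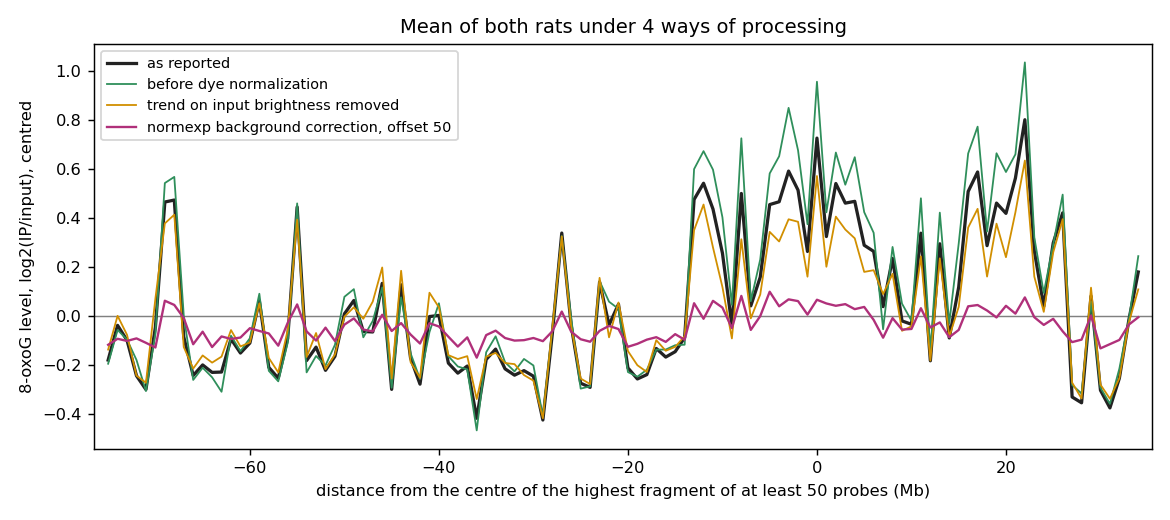
Mean level of both rats (vertical axis, log2(IP/input), centred) of the 110 fragments against the distance from the centre of the highest fragment of at least 50 probes (horizontal axis, Mb), as reported and under 3 other ways of processing. At the centre the curves stand at 0.73 as reported, 0.96 before dye normalization, 0.57 with the brightness trend removed and 0.065 with normexp. The first 3 largely rise and fall together. The normexp curve has a much smaller range and does not follow them everywhere. For the fragment from 101 to 102 Mb it has -0.064, where the reported level is 0.42.

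Taken as a whole, chromosome 15 was near the median of the array. Its mean over all probes was 0.02 on replicate 1 and -0.06 on replicate 2, hence -0.02 ± 0.05 (SD, n = 2), and the other chromosomes together had -0.02 and -0.10. By this mean it had rank 5 of 21 chromosomes. By the SD of its 1 Mb fragments, 0.30, it ranked second behind chromosome 13, and chromosome 5 had 0.28. High and low parts of chromosome 15 thus nearly cancelled in the mean over probes. In that mean every probe counts alike, and depleted regions held 4929 probes against 2539 in rich regions. These ranks were not tested.

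No gene can be placed on these fragments, since the array files name none and an annotation of rn4 was not used here. As background, all 15 genes of a list drawn up for the chromosome lie on chromosome 15 in the RefSeq annotation of the later assembly GRCr8. Among them are Rb1, which restrains entry into the cell cycle, Ednrb, a receptor for endothelins, Thrb and Rarb, nuclear receptors for thyroid hormone and retinoic acid, Myh6 and Myh7, the cardiac myosin heavy chains, and Pcdh9 and Pcdh17, protocadherins of the nervous system. Positions differ between the assemblies, so no level is given for them.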

How the data were processed

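Both scanner files give, per spot and channel, intensities that the authors made with Agilent Feature Extraction 10.5.1.1 (background subtraction, spatial detrending, lowess dye normalization; protocol adapted from CGH). The deposited intensity columns used were processed signals, signals before dye normalization, and median signals of spot and background. The authors also deposited a table of log2 values, which equals log2 of processed red over green to within 6.2e-15 and is not centred. The remaining deposited columns (other values) are flags for controls, outliers, saturation and signal above background. Coordinates are those of rn4 given by the array design.

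Spots flagged as outliers and controls were removed, saturation was no ground for removal, and repeat spots were averaged by probe. Levels were centred on the median of each array, averaged in fragments of 1 Mb and smoothed over 500 kb in both directions. Fragments were fitted with limma 3.58.1 (R 4.3.3) against 0. With 1 residual degree of freedom per fragment, limma pooled the spread over all 2731 fragments. Calls had an adjusted p under 0.05. The fit was tested on simulated data. Python 3.11.15, numpy 2.4.6, pandas 2.3.3, scipy 1.17.1, statsmodels 0.14.6 and matplotlib 3.10.9 were used. As no mean signals were used, normexp (offset 50) was applied to median signals. Its ratios had no spatial detrending or dye normalization and were centred on the median of each array. The brightness trend was a lowess of level on input intensity (span 0.3).

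The chromosome, the gene list and the rules were chosen with earlier results of these data known. Named were the fragment from 75 to 76 Mb with 3 fragments on each side, its 200 kb pieces and its 5 highest and 5 lowest probes, the 5 highest and 5 lowest fragments of at least 20 probes with the same sign on both arrays, the 3 that differed most in sign, the 3 largest steps, and the 3 longest rich and depleted regions. The 97 to 98 Mb pieces, the narrow rich regions, the step at 98 Mb, the final fragment and the sparse fragments were added after their values were seen. Probe sequences, genes and expression were not analysed here.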

Additional observations from a re-analysis of the deposited data

How the results depend on the processing

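No paired analysis was possible because both rats are in 1 group. Limma calls without a replicate could not be made, since no residual degrees of freedom remain. Calls above 0 on chromosome 15 (33 as reported) were 0 with normexp by limma, where 7 of all 2731 fragments were called. At an unadjusted p under 0.05 there was 1 on the chromosome, against 34 with the levels as reported. With 2 Mb fragments, 15 of its 55 were called above 0, where 308 of all 1369 were. Calls below 0 (18) were 1 with normexp, 7 with the brightness trend removed and 8 with medians over probes. They were 6 when a level beyond 0.25 on both arrays was required. At an unadjusted p under 0.05 by limma, 37 were below 0 with normexp and 28 with the levels as reported. No unadjusted count over all fragments was made. Of all 2731 fragments, 99 were called below 0 with normexp, 379 with the trend removed and 226 with medians. For the requirement of 0.25, no count over all fragments was made. The correlation between the rats (0.830) was 0.698 with normexp, 0.743 with the trend removed, 0.746 with medians, 0.606 with 500 kb fragments, 0.745 with these but without the fragment of 1 probe (an alternative chosen after seeing the data), and 0.925 with 2 Mb fragments. The level at 75 to 76 Mb was 0.065 with normexp, 0.96 before dye normalization and 0.57 with the trend removed. It was 0.64 without replicate 1 and 0.81 without replicate 2. Rich regions of 1 Mb or longer (12) numbered 6 with a window of 1 Mb to each side, 12 without replicate 1 and 10 without replicate 2. Depleted regions (14) numbered 13 without replicate 1 and 16 without replicate 2. The mean of the chromosome was -0.06 without replicate 1 and 0.02 without replicate 2, and in each alternative run it moved by less than the SD over the rats. Of 29 named levels, each recomputed under 7 settings on both rats, which gives 203 values, 132 moved by less than the spread between the rats and 71 by more. The sign changed in 5 of the 203. The fragment from 101 to 102 Mb, called above 0, had -0.064 with normexp, and the other 4 belong to the fragments from 8 to 9 Mb and from 66 to 67 Mb, which were not called. Leaving outlier flags unused moved none of the 29. Leaving out the centring shifted all levels of an array by the same amount and moved 5 of the 29. Both settings could change the levels little, and both count toward the 203. Normexp left 7 of the 29 within the spread. The spread is an SD over 2 rats, so where it is wide a large move counts as small. The level at 74 to 75 Mb, 0.26 ± 0.30 (SD, n = 2), was 0.004 with normexp and counted as moved by less. Levels without a replicate are not counted here, since 1 of 2 rats always lies within the SD of their mean. The cause of these differences was not tested.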

Other observations

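The 85 probes on sequence of chromosome 15 without a fixed position had mean levels of -0.11 on replicate 1 and -0.01 on replicate 2. Repeat spots of 41 probes of chromosome 15 had an SD within an array of 0.29 on replicate 1 and 0.27 on replicate 2, while the SD over all probes of the chromosome was 0.97 and 1.24. Intervals over 100 kb without a probe numbered 38 on the chromosome.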
